A study of Mus musculus with 48 samples.

Results

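The mouse retina at embryonic day 15.5 (E15.5) was compared with brain, heart, kidney, liver and lung of the same age. The retina contributed 4 of the 48 libraries of the series, 2 by RNA-seq and 2 by Ribo-seq, and the 5 other tissues contributed 20 libraries, 10 per assay. Libraries were chosen by their tissue and age labels alone. All animals were wild-type C57BL/6 mice, and each tissue, age and assay was represented by 2 biological replicates per the labels. Brain shares the ectodermal origin of the retina, while the 4 remaining organs stand for mesoderm (heart, kidney) and endoderm (liver, lung). RNA-seq counts fragments of poly(A) messenger RNA, and Ribo-seq counts the short fragments that ribosomes protect from nuclease, so it reads which messages are being translated and how often. The deposited values are TPM, a share of transcripts that is corrected for gene length. The comparison asked which genes were higher in retina than in every other tissue, and which were lower.

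The retina forms from the optic vesicle, an outgrowth of the forebrain. A small set of transcription factors, the eye field factors, specifies it, and a single pool of progenitors then gives rise to all its neurons in an overlapping order. Ganglion cells, horizontal cells, cone photoreceptors and amacrine cells are born first, before birth in the mouse, while most rods, bipolar cells and Müller glia follow later. The embryonic retina has no blood vessels of its own until around birth and is fed by vessels in the vitreous and behind the pigment epithelium.

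A gene was tested when at least 2 of the 12 E15.5 libraries of an assay reached 1 TPM. It was called higher or lower when the retina differed from each of the 5 tissues in the same direction by at least 1 on the log2(TPM + 1) scale, with all 5 adjusted p-values below 0.05 (limma, Benjamini-Hochberg). The margin of a gene is its distance on that scale to the nearest other tissue, the highest one for a gene that was higher and the lowest one for a gene that was lower. The scale understates the change of genes near 0 TPM. In tissue homogenates, fewer cells of a type and less RNA per cell cannot be told apart.

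The 2 retina libraries correlated at r = 0.9968 by RNA-seq and 0.99 by Ribo-seq over log2 values. The listed genes held 87.32% of the TPM total in both retina RNA-seq libraries and 48.94% to 84.59% in the others, where kidney replicate 2 was lowest. By Ribo-seq they held 27.85% and 23.14% in retina, the lowest shares of that table, against 29.56% to 59.21% elsewhere. The median gene differed between retina and the other tissues by −0.067 to 0.799 in RNA-seq and by −0.635 to −0.137 in Ribo-seq, and counts are given also for the genes that kept their call under 3 scalings where these differ (the deposited values, median-of-ratios factors, and an equal sum of the listed genes). Read depth is unknown, since the files hold no counts.

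RNA-seq called 342 of 16387 genes (2.09%) higher in retina than in every other tissue and 407 (2.48%) lower. Of these, 246 (1.5%) and 388 (2.37%) kept the call under all 3 scalings. Ribo-seq called 152 of 14972 genes (1.02%) higher and 799 (5.34%) lower, of which 152 (1.02%) and 350 (2.34%) kept the call. The split of the Ribo-seq calls moved with the scaling, from 152 higher and 799 lower as deposited to 269 and 466 with median-of-ratios factors and 277 and 412 with equal sums. The RNA-seq split was 250 and 503, and 285 and 440, under the same alternatives. When 1 library was left out at a time, the Ribo-seq count of higher genes and the count higher by both assays were lowest without retina replicate 1. Without either retina replicate, a gene read only in retina has 1 library left and cannot pass the filter on low values. What part of the fall this makes up was not tested.

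Both assays called 129 of 14910 genes higher (0.865%) and 280 lower (1.88%), and 124 (0.832%) and 224 (1.5%) did so under all 3 scalings. Among genes tested in both, the 129 were 44.3% of the 291 RNA-seq calls and 88.4% of the 146 Ribo-seq calls. The 280 were 69.1% of the 405 RNA-seq calls and 35.0% of the 799 Ribo-seq calls. The count of genes called in opposite directions was 0. Of the 162 genes higher by RNA-seq alone, 125 also had a retina mean above every other tissue by Ribo-seq, with a median margin of 0.43.

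The tissue nearest to retina was most often brain. It was brain for 189 of the 342 genes higher by RNA-seq (55.3%), lung for 70 (20.5%), kidney for 33, liver for 30 and heart for 20. Among the 407 lower genes it was brain for 215 (52.8%) and liver for 120 (29.5%). A further 1304 genes by RNA-seq (7.96%) and 500 by Ribo-seq (3.34%) were higher in retina than in heart, kidney, liver and lung without being called above brain. The margins of the higher genes had a median of 1.65 in both assays, and 27 RNA-seq margins reached 4.

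**Figure D1:**
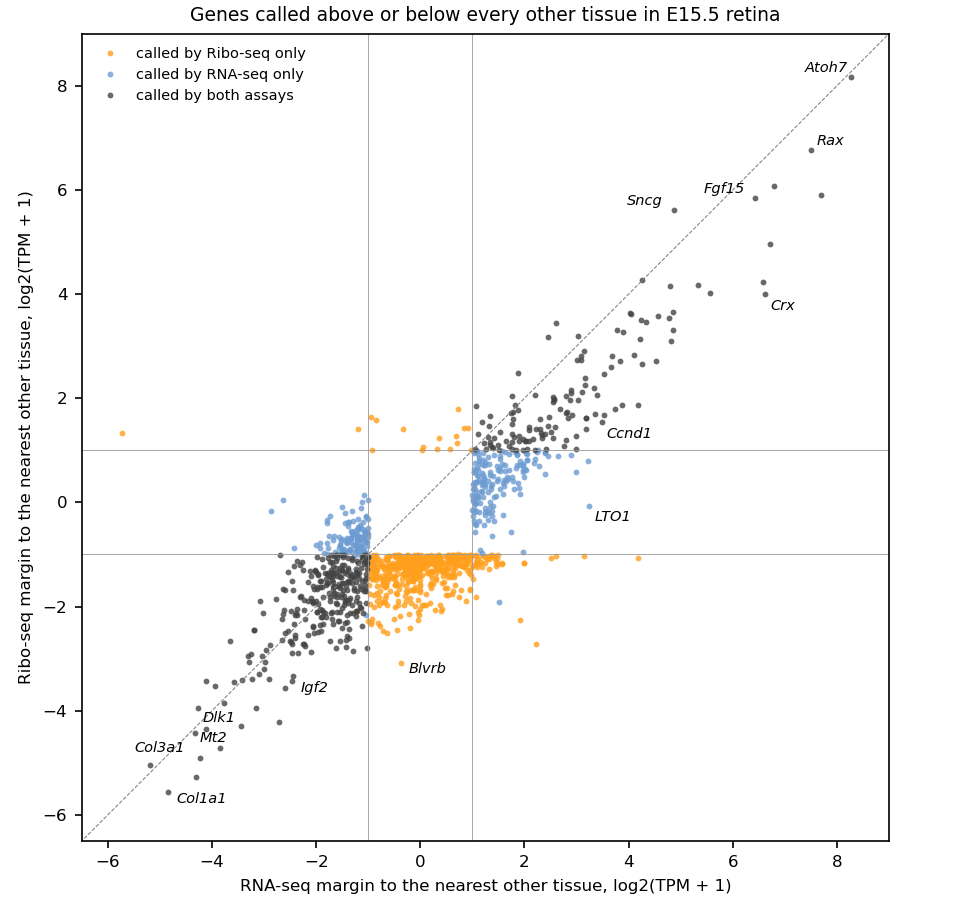
Margin of retina to the nearest other E15.5 tissue in RNA-seq (x axis) and Ribo-seq (y axis), both in log2(TPM + 1), for every gene called above or below every other tissue by either assay and tested in both; colours show which assay made the call, thin lines mark a margin of 1 and the dashed line marks equal margins. Atoh7 and Rax lie farthest to the upper right and Col3a1 and Col1a1 farthest to the lower left, and the 519 genes lower by Ribo-seq alone spread on both sides of 0 in RNA-seq.

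The list counts below are to be read beside the shares over all genes tested. These were 2.09% higher and 2.48% lower by RNA-seq, and 1.02% higher and 5.34% lower by Ribo-seq. Some genes stand in several lists and are counted in each, so the list counts are not independent of one another. Transcription factors of the eye field and the retinal progenitor come first. Of 29 listed, all tested, 13 were higher by RNA-seq and 10 by Ribo-seq, 12 and 10 of them under all 3 scalings, and 1, Ikzf1, was lower by RNA-seq. The median margin of the list to the highest other tissue was 0.74 by RNA-seq, beside −0.60 over all genes, and 0.08 by Ribo-seq, beside −1.25.

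Rax, the homeobox gene whose loss prevents eyes from forming, stood at 470 and 303 TPM in the retina RNA-seq libraries and between 0 and 1.12 TPM in the 10 others (median 0.0587). By Ribo-seq it stood at 183 and 193 TPM against 0 to 1.15 TPM. No other library came near the retina, and the margin over brain was 7.51 (SE 0.207, largest adjusted p = 3.55e-38, limma) by RNA-seq and 6.77 (SE 0.18, adjusted p = 7.14e-09) by Ribo-seq.

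Six6, a homeobox partner of Rax in the optic vesicle, had 219 and 239 TPM by RNA-seq and 48.4 and 45.8 TPM by Ribo-seq, against at most 1.68 and 0.83 TPM in other tissues. Vax2, which marks the ventral retina, had 138 and 79.2 TPM and 17.7 and 18.7 TPM, against at most 0.23 and 0.0416 TPM. Both were separated from all 10 other libraries in each assay, with RNA-seq margins of 6.72 and 6.57. Six3 and Pax6, which the forebrain also uses, had smaller margins. Six3 was at 272 and 277 TPM against at most 24.9 TPM in brain (margin 3.52), and Pax6 at 208 and 221 TPM against at most 16.8 TPM in brain (margin 3.66). By Ribo-seq their margins over brain were 2.46 and 2.59, and the other 4 tissues were near 0 for both genes. The exons of Rax, Six3, Six6, Otx2, Ptf1a and Fgf15 overlap those of other annotated transcripts, most of them noncoding, so their values may include reads of those.

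Several regulators that retina shares with brain were not called. Lhx2, another eye field factor, had 216 and 161 TPM in retina and 128 and 156 TPM in brain, with a difference of 0.4 (SE 0.257, adjusted p = 0.215) by RNA-seq and of −1.01 by Ribo-seq. Sox2, the neural progenitor factor, had 292 and 297 TPM in retina and 196 and 231 TPM in brain, with a difference of 0.47 (adjusted p = 0.141). Both were far above heart, kidney and liver, and Sox2 also had 30.7 and 29.4 TPM in lung.

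**Figure D2:**
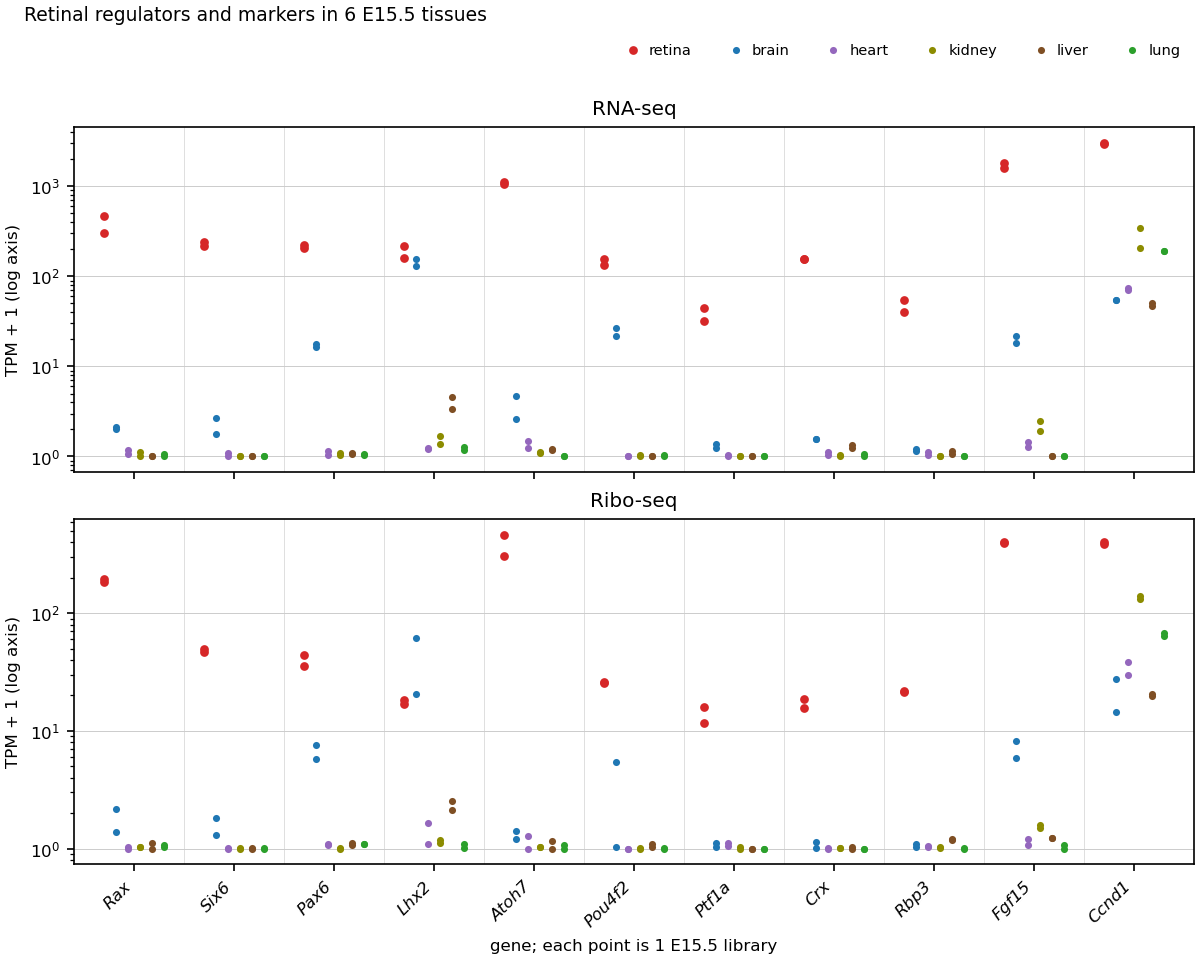
TPM + 1 on a log axis for 11 genes in each E15.5 library, by RNA-seq (top) and Ribo-seq (bottom); each point is 1 library, coloured by tissue, with 2 libraries per tissue. Both retina points lie above all 10 others for every gene except Lhx2 by Ribo-seq, for which brain is highest.

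Secreted and cell cycle effectors of the progenitor included some of the most abundant genes above every other tissue. Of 25 listed, 12 were higher by RNA-seq, all 12 under the 3 scalings, and 8 of 24 tested by Ribo-seq. Ribo-seq called 2 lower, Ccne1 and Cdkn1c, and neither kept that call under all scalings. Fgf15, a fibroblast growth factor of the neural retina, was at 1610 and 1803 TPM by RNA-seq and 401 and 395 TPM by Ribo-seq. The 10 other libraries ranged from 0 to 20.5 TPM and from 0 to 7.23 TPM, with brain the highest, and the margins were 6.43 (SE 0.247) and 5.85 (SE 0.169). Ccnd1, the D-type cyclin of retinal progenitors, was at 3022 and 2987 TPM against 45.3 to 346 TPM elsewhere, with kidney next and a margin of 3.48. Its Ribo-seq values were 402 and 383 TPM against 13.5 to 140 TPM, a margin of 1.54. It had the highest retina RNA-seq level of the genes called by both assays.

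Dkk3, a secreted Dickkopf-family protein that stays on in Müller glia, had 1205 and 1240 TPM by RNA-seq, where heart came next (largest other library 72.4 TPM, margin 4.1). Dapl1 (chr2:59484653-59505020), a death-associated-protein-like gene, had 967 and 794 TPM against at most 9.4 TPM, in kidney, and 738 and 449 TPM by Ribo-seq against at most 8.75 TPM. Its margins of 6.78 and 6.08 were among the largest in each assay. Sfrp2, a secreted Wnt-binding protein, was called by RNA-seq only. It had 702 and 829 TPM against 2.07 to 252 TPM (margin 1.92), and 162 and 170 TPM by Ribo-seq against up to 150 TPM in kidney, with a margin of 0.16 (adjusted p = 0.507).

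Pathway genes were counted beside these. Of 26 Notch pathway genes tested, 11 were higher by RNA-seq and 3 of 25 by Ribo-seq, 7 and 3 of them under all scalings, and 0 were lower by limma in either assay (0 and 1 at an unadjusted p below 0.05 in all 5 contrasts). The Notch effector Hes5 had 232 and 171 TPM against up to 48.7 TPM in brain (margin 2.02), and Hes6 had 545 and 382 TPM against up to 139 TPM (margin 1.78). Notch1, the receptor, had 84.6 and 83.4 TPM against 8.24 to 32.5 TPM (margin 1.37), and was not called by Ribo-seq at 41.4 and 38.4 TPM against up to 31.5 TPM. Among 44 Hedgehog, Wnt and BMP regulators, 5 were higher by RNA-seq and 2 by Ribo-seq, 3 and 2 under all scalings. Over all genes tested, 2.09% and 1.02% were higher. The Wnt receptor Fzd5 was one called by both, at 134 and 144 TPM against 2.3 to 20.8 TPM (margin 2.8), with liver the next tissue. In 46 genes of DNA replication and mitosis, limma called 0 higher and 0 lower by RNA-seq (4 and 0 at an unadjusted p below 0.05 in all 5 contrasts). Their summed level was 5570 and 5815 TPM in retina against 1320 to 5809 TPM elsewhere, and their median difference from brain was 2.02. By Ribo-seq 0 were higher and 1 lower, and the sum was 2643 and 2015 TPM against 1007 to 5552 TPM. The median differences in Ribo-seq were 0.91 from brain and 0.15 from heart, but −0.7 from kidney, −1.15 from liver and −0.76 from lung.

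Ccnd1 and Fgf15 are neighbours on chromosome 7, and Fgf3, also in that segment, was called by both assays too. This neighbourhood was examined after the values were seen. In GRCm38 coordinates of GENCODE M21, Fgf3 lies at chr7:144838083-144844436, Fgf15 at chr7:144896531-144900953 and Ccnd1 at chr7:144929931-144939925. Fgf3, another fibroblast growth factor, had 118 and 113 TPM against at most 7.55 TPM in brain, with margins of 3.84 by RNA-seq and 2.72 by Ribo-seq. Fgf4, between Fgf3 and Fgf15, was not tested, at 0.234 and 0.247 TPM in retina. LTO1 (chr7:144915100-144931701), whose exons overlap those of Ccnd1 on the opposite strand, was at 651 and 669 TPM by RNA-seq, a margin of 3.24, and at 3.17 and 3.07 TPM by Ribo-seq, a margin of −0.07. The strand setting of the counting is not given in the sources used here, so RNA-seq reads of LTO1 and Ccnd1 in the shared exons cannot be told apart. Within 400 kb on either side, Ppfia1, Fadd, Ano1 and Tpcn2 were not called higher by either assay, and Ano1, a chloride channel, had 69.2 and 73.3 TPM in retina and up to 58.8 TPM in lung.

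**Figure D3:**
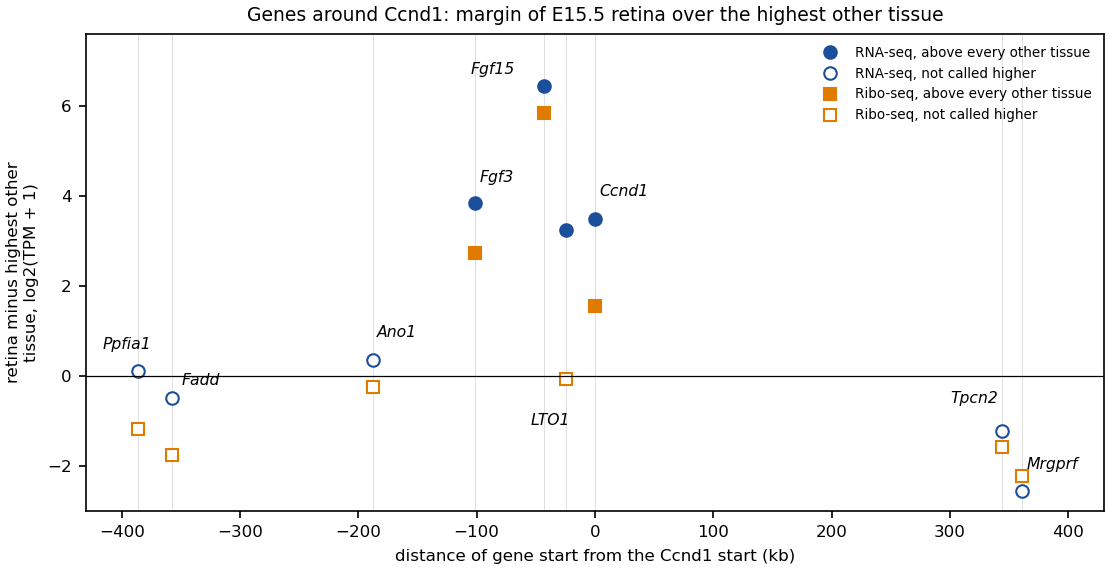
Difference between retina and the highest other E15.5 tissue in log2(TPM + 1) (y axis) for tested genes within 400 kb of Ccnd1, against the distance of their start from the Ccnd1 start in kb (x axis); circles are RNA-seq, squares are Ribo-seq, and filled symbols are genes called above every other tissue. Fgf3, Fgf15 and Ccnd1 are filled in both assays, LTO1 in RNA-seq alone, and the genes farther out lie at 0.36 or below.

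Ganglion cells are the output neurons of the retina and the first to be born. Of 41 ganglion cell genes, 13 were higher by RNA-seq and 10 of 40 by Ribo-seq, 11 and 10 under all scalings. Another 14 by RNA-seq and 13 by Ribo-seq were above the 4 non-neural tissues without being called above brain. Atoh7 (chr10:63099651-63101279), the basic helix-loop-helix factor that ganglion cells require, had the largest margin of all genes in both assays. It was at 1072 and 1104 TPM by RNA-seq against 0 to 3.66 TPM elsewhere, and at 303 and 459 TPM by Ribo-seq against 0 to 0.403 TPM. The margins over brain were 8.28 (SE 0.234, largest adjusted p = 9.78e-38) and 8.17 (SE 0.203, adjusted p = 4.58e-09).

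Pou4f2, a POU factor downstream of Atoh7, had 133 and 156 TPM against up to 25.5 TPM in brain (margin 2.6), and Isl1, its LIM-homeodomain partner, had 142 and 154 TPM against up to 32.9 TPM (margin 2.3). By Ribo-seq the margins were 3.44 and 1.6. Sncg, gamma-synuclein, an abundant ganglion cell protein, reached 2094 and 1721 TPM against 0.177 to 86.5 TPM, and 936 and 565 TPM by Ribo-seq against 1.21 to 24.9 TPM. The neurofilament subunits Nefl and Nefm were the 2 of 43 pan-neuronal genes called above brain. Nefl had 497 and 471 TPM against up to 253 TPM in brain (margin 1.18), and Nefm 424 and 418 TPM against up to 148 TPM (margin 1.73), with Ribo-seq margins of 1.55 and 1.71. The exons of Nefl and Nefm overlap in the annotation, so their values may share reads.

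The rest of the pan-neuronal list was not called above brain. By RNA-seq 38 of the 43 genes were higher in retina than in heart, kidney, liver and lung but not above brain, and the median difference from brain was −0.78. By Ribo-seq 35 were, and the median was −1.26. For 36 transcription factors that pattern brain regions, limma called 0 higher in either assay (0 in both also at an unadjusted p below 0.05). Their median difference from brain was −3.46 by RNA-seq, and their summed level was 352 and 346 TPM in retina and up to 2517 TPM in another library. In 41 axon guidance genes limma likewise called 0 higher (4 by RNA-seq and 0 by Ribo-seq at an unadjusted p below 0.05), and 17 were above the non-neural tissues alone. Alcam, a cell adhesion molecule of growing axons, was lower than in every other tissue, at 1.83 and 2.62 TPM against 15.8 to 127 TPM (margin −2.41).

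Amacrine and horizontal cells are the interneurons of the retina. Of 26 listed genes, 8 were higher by RNA-seq and 7 of 25 by Ribo-seq, 7 and 7 under all scalings. Those called by both assays included Pax6, also in the progenitor factor list, and Neurod1 and Neurod4, also in the photoreceptor list. Foxn4, which opens the amacrine and horizontal path in progenitors, was counted in the progenitor factor list and not among these 26. It had 223 and 206 TPM against 0 to 4.15 TPM (margin 5.55, lung next). Ptf1a, which directs cells to both fates, had 43.5 and 30.8 TPM against 0 to 0.366 TPM, and 14.8 and 10.7 TPM by Ribo-seq against 0 to 0.123 TPM. Prdm13, an amacrine regulator, had 44.1 and 34.5 TPM against 0 to 1.39 TPM. For these 3 genes both retina libraries lay far above all 10 others. Onecut1, a horizontal cell and ganglion cell factor that liver also uses, had 60.5 and 79.6 TPM against up to 9.38 TPM in liver (margin 2.99), and its Ribo-seq margin was 1.02. Prox1, a horizontal cell factor that many organs use, had 31.1 and 33.7 TPM against up to 33.2 TPM in heart and was not called.

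Photoreceptor genes were next. Of 51 listed, 34 were tested by RNA-seq and 20 were higher (18 under all scalings), and 31 were tested by Ribo-seq and 17 were higher, all 17 under the 3 scalings. Both assays called 12, RNA-seq alone 8 and Ribo-seq alone 5, of which 3 were not tested by RNA-seq. The remainder of the list did not pass the filter on low values, and a member near 0 elsewhere passed it only through retina, so its share of tested members is not compared with that of other lists. Crx (chr7:15865947-15879968), the homeobox factor that switches on photoreceptor genes, had 154 and 153 TPM against 0 to 0.572 TPM, and 14.7 and 17.7 TPM by Ribo-seq against 0 to 0.132 TPM. Its margins over brain were 6.63 (SE 0.186) and 4.0 (SE 0.108). Otx2, which acts before Crx, had 170 and 167 TPM against up to 36.2 TPM in brain (margin 2.2).

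Prdm1, which holds photoreceptor precursors from the bipolar path, had 66.9 and 70.3 TPM against 0.364 to 3.38 TPM (margin 4.21). Neurod4, a helix-loop-helix factor of photoreceptors and amacrine cells, had 143 and 167 TPM against 0 to 6.06 TPM (margin 4.57). Isl2, counted in this list, had 44.7 and 28.7 TPM against 0 to 1.66 TPM (margin 3.9). Which retinal cells carried Isl2 was not tested. Rbp3, the retinoid carrier of the space around photoreceptors, had 53.7 and 39.2 TPM against 0 to 0.198 TPM, and 20.3 and 20.8 TPM by Ribo-seq. Pdc, phosducin, which binds transducin, had 28.3 and 25.5 TPM against 0 to 0.0186 TPM, and 12.4 and 9.22 TPM by Ribo-seq. Both had the retina libraries above every other library in each assay. Nrl, the factor that sets the rod fate, was low at 2.93 and 2.08 TPM (margin 1.42, not kept under all scalings), and its Ribo-seq values of 0.332 and 0.42 TPM did not pass the filter.

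Promoter sequence of the photoreceptor genes was read because Crx and Otx2 are known to bind the 6 bases TAATCC. Of the 20 members higher by RNA-seq, 16 matched a RefSeq promoter window (GRCm38.p6, 250 bases before to 50 after the start), and 6 of these (37.5%) held TAATCC on either strand. The share was 5.4% over 11412 genes tested in both assays (616 genes), 8.79% among 91 genes higher by both assays and 5.8% among 207 lower by both. These sets are unlike the 20 members, which were taken by RNA-seq alone. Some of the 20 passed the filter on low values only through retina, and list members that were not called were not counted. The shares are therefore descriptions and were not tested. The 4 members below were chosen after their matches were seen. Each has a match before the start, and those bases lie outside or almost outside the annotated exons of the same gene. Exons of other genes were not checked. The other 2 are Gnat2 and Thrb. Each sequence gives the 250 bases before the start, 5′ to 3′ on the gene's strand, with TAATCC or its reverse complement GGATTA in capitals. They lie at chr7:15879956-15880205 (minus strand) for Crx, chr14:33953753-33954002 (plus strand) for Rbp3, chr11:72037510-72037759 (minus strand) for Aipl1 and chr7:64153585-64153834 (plus strand) for Trpm1.
Crx: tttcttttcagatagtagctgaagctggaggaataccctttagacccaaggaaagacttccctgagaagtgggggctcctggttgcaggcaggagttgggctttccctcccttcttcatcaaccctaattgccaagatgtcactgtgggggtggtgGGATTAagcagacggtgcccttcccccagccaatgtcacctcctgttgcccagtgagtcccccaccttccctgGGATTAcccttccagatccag
Rbp3: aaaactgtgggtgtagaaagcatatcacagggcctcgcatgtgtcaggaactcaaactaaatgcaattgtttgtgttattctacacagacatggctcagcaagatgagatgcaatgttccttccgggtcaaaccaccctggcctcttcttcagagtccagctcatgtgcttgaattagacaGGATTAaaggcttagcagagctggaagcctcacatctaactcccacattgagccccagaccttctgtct
Aipl1: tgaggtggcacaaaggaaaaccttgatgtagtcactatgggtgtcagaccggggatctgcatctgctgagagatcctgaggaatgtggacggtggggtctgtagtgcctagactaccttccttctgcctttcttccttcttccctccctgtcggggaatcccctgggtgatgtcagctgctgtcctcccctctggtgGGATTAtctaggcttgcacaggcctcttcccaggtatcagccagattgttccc
Trpm1: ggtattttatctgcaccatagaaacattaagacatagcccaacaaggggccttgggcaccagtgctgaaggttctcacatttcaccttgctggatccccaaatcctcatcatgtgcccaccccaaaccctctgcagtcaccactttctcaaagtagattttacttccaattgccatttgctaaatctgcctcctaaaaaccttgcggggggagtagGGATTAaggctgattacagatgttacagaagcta
The matches begin 94 and 21 bases before the start of Crx, 69 before that of Rbp3, 53 before that of Aipl1 and 34 before that of Trpm1. Aipl1 has another match 10 bases after the start, outside the bases printed. Aipl1, a chaperone of phototransduction enzymes, was at 4.42 and 2.25 TPM in retina by RNA-seq against at most 0.597 TPM. Trpm1, a channel known from bipolar cells and melanocytes that this list also holds, was at 1.24 and 2.36 TPM against at most 0.0921 TPM. A match of 6 letters describes the sequence and does not show binding. Over the same windows TAATTA, the core of many homeodomain sites, was found in 4.4% of the genes higher by both assays and 2.6% of all. The E-boxes CAGCTG and CAGATG were found in 23.1% and 17.6% against 15.3% and 11.8%. Genes lower by both assays had similar shares, 3.38% for TAATTA and 21.3% and 15.5% for the E-boxes, so these shares do not set the higher genes apart.

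A few rod genes had higher values by Ribo-seq than by RNA-seq. Gnat1, rod transducin, had 4.0 and 13.2 TPM by Ribo-seq and 0.739 and 0.78 TPM by RNA-seq, and Prph2, a disc-rim protein, had 1.53 and 5.35 TPM and 0.82 and 0.787 TPM. Retina replicate 2 was 3.3 and 3.5 times replicate 1 for these 2 genes by Ribo-seq. Gnat1, Prph2, Rom1 and Pde6g are among the 5 photoreceptor genes called by Ribo-seq alone. Of these 5, 3 were not tested by RNA-seq, Gnat1 and Prph2 among them. Rom1 went the other way in level, at 3.63 and 5.3 TPM by Ribo-seq and 13.8 and 9.5 TPM by RNA-seq. Its margin over the highest other tissue was still larger by Ribo-seq, at 1.79, than by RNA-seq, at 0.73. At postnatal day 42 Gnat1 stood at 22300 and 18670 TPM in retina by RNA-seq. Scgb1a1, an airway secretoglobin, showed a like pattern, with 4.17 and 13.5 TPM in E15.5 retina by Ribo-seq, 0.784 and 0.331 TPM by RNA-seq, and 220403 and 338799 TPM in lung at postnatal day 42. These genes were singled out after their values were seen, and what the adult-abundant genes owe to other libraries of the series was not tested.

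Bipolar cells and Müller glia are born late. Of the 20 bipolar cell and Müller glia genes, 16 were tested by RNA-seq, where 3 were higher (2 under all scalings) and 2 lower, and 13 by Ribo-seq, where 2 were higher and 3 lower (2 under all scalings). Lrit3, a bipolar synapse protein, had 5.78 and 5.64 TPM against 0 to 0.262 TPM. Glul, glutamine synthetase, had 525 and 510 TPM against 64.2 to 208 TPM (margin 1.4, not kept under all scalings). Apoe and Clu, secreted lipid carriers of mature glia, were lower than in any other tissue, with Clu at 8.47 and 8.23 TPM against 52.7 to 238 TPM (margin −2.54) and Apoe at 69.5 and 51.8 TPM against 156 to 1366 TPM (margin −1.45).

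Markers of the tissues around the retina were counted to see what the dissected samples held. Of 28 pigment epithelium and melanocyte genes, 23 were tested by RNA-seq, where 5 were higher (3 under all scalings) and 1 lower. By Ribo-seq 18 were tested, where 1 was higher and 2 lower, beside 1.02% and 5.34% of all genes tested. A member near 0 elsewhere passed the filter on low values only through retina. The pigment genes Tyrp1 and Pmel were low in retina, at 1.69 and 2.28 TPM and at 8.5 and 9.42 TPM, though above every other tissue by RNA-seq as deposited. Mitf, the pigment cell regulator, was at 0.807 and 1.61 TPM and below heart at up to 24.1 TPM. Rrh, peropsin, had 14.2 and 12.5 TPM against at most 0.549 TPM, and Serpinf1, a pigment epithelium factor, was lower than elsewhere at 7.59 and 6.98 TPM.

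Of 30 lens genes, 23 were tested by RNA-seq and 8 were higher (6 under all scalings), and 9 were tested by Ribo-seq and 2 were higher. A member near 0 elsewhere passed the filter on low values only through retina, so these shares are not compared with those of other lists. Cryaa, the lens alpha-crystallin, had 9.61 and 22.8 TPM in retina against at most 0.173 TPM, and Cryba1 had 7.12 and 13.1 TPM against at most 1.47 TPM. Replicate 2 was higher for both. Crygd was at 1.45 and 1.3 TPM and was listed at 0 in all 10 other libraries. The summed level of the lens list was 101 and 137 TPM, inside the range of the other libraries (57.7 to 1081 TPM), and its part in the retina values was not tested. Among 29 cornea and periocular mesenchyme genes 3 were higher and 8 lower by RNA-seq. Mab21l2, which the optic cup itself also uses, was highest of the 3 at 311 and 336 TPM, and the lower ones were collagens, proteoglycans and the mesenchyme receptor Pdgfra. Of 21 ciliary margin genes, 2 were higher by RNA-seq and 1 by Ribo-seq, beside 2.09% and 1.02% of all genes tested. Col9a1, a collagen of the margin and vitreous, had 148 and 131 TPM against 0.0298 to 10.8 TPM (margin 3.68), and Gdf6 had 10.7 and 11.8 TPM against at most 1.79 TPM.

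Many genes of connective tissue, vessels, blood and macrophages were lower than in every other tissue. Of 49 extracellular matrix genes, 22 were lower by RNA-seq, all under the 3 scalings, and 27 by Ribo-seq, 22 under the 3 scalings. Col3a1, a fibrillar collagen, had the largest margin of any gene lower by RNA-seq. It was at 0.555 and 0.61 TPM in retina against 55.6 to 744 TPM elsewhere, and at 0.597 and 0.791 TPM by Ribo-seq against 48.7 to 923 TPM. The nearest tissue was brain, with margins of −5.2 (SE 0.283, largest adjusted p = 5.91e-24) and −5.04 (SE 0.177, adjusted p = 4.06e-08). Col1a1 was at 1.51 and 0.888 TPM against 46.5 to 1216 TPM (margin −4.84), and the proteoglycans Dcn and Lum were at 0.281 and 0.31 TPM and 0.0915 and 0.322 TPM against at least 23.2 and 16.4 TPM. In each of these genes both retina libraries lay below all 10 others.

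Of 37 endothelial and pericyte genes, 24 were lower by RNA-seq, all under the 3 scalings, and 21 by Ribo-seq, 17 under the 3 scalings. Cdh5, the cadherin of endothelial junctions, was at 2.15 and 3.52 TPM against 33.1 to 304 TPM (margin −3.29). Tek, the angiopoietin receptor, was at 0.444 and 0.468 TPM against 11.7 to 68.9 TPM (margin −3.19), and Pecam1 was at 1.21 and 1.95 TPM against 16.2 to 144 TPM (margin −2.77). The summed level of the list was 260 and 270 TPM in retina against 578 to 4239 TPM elsewhere. One member, chosen after its values were seen, stood apart. Kdr, a VEGF receptor that retinal neurons and progenitors also carry, had 86.7 and 88.9 TPM in retina against 13.7 to 65.7 TPM, a difference of 0.47 from lung that was not called.

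Of 26 erythroid genes, 10 were lower by RNA-seq and 16 by Ribo-seq, 9 and 13 under the 3 scalings. The adult-type globins led them. Hba-a2 was at 28.1 and 26.2 TPM against 531 to 3397 TPM (margin −4.31), and Hbb-bs at 110 and 145 TPM against 1341 to 90064 TPM (margin −3.84). Alas2, the first enzyme of erythroid haem synthesis, was at 3.51 and 4.23 TPM against 56.5 to 1702 TPM. The list summed to 434 and 473 TPM in retina against 4063 to 129626 TPM, with liver, the blood-forming organ of the fetus, highest. Globin genes of a pair are near-identical copies, and reads may be split between them.

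Of 24 macrophage and microglia genes tested, 13 were lower by RNA-seq and 16 by Ribo-seq, 13 and 14 under the 3 scalings. Tyrobp, an adaptor of myeloid receptors, was at 5.82 and 3.9 TPM against 19.0 to 150 TPM (margin −1.99). Mrc1, the mannose receptor, was at 0.363 and 0.94 TPM against 5.44 to 45.9 TPM (margin −2.07), and Lyz2 was at 1.87 and 3.11 TPM against 14.6 to 542 TPM. The list summed to 94.8 and 98.4 TPM against 249 to 1639 TPM.

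**Figure D4:**
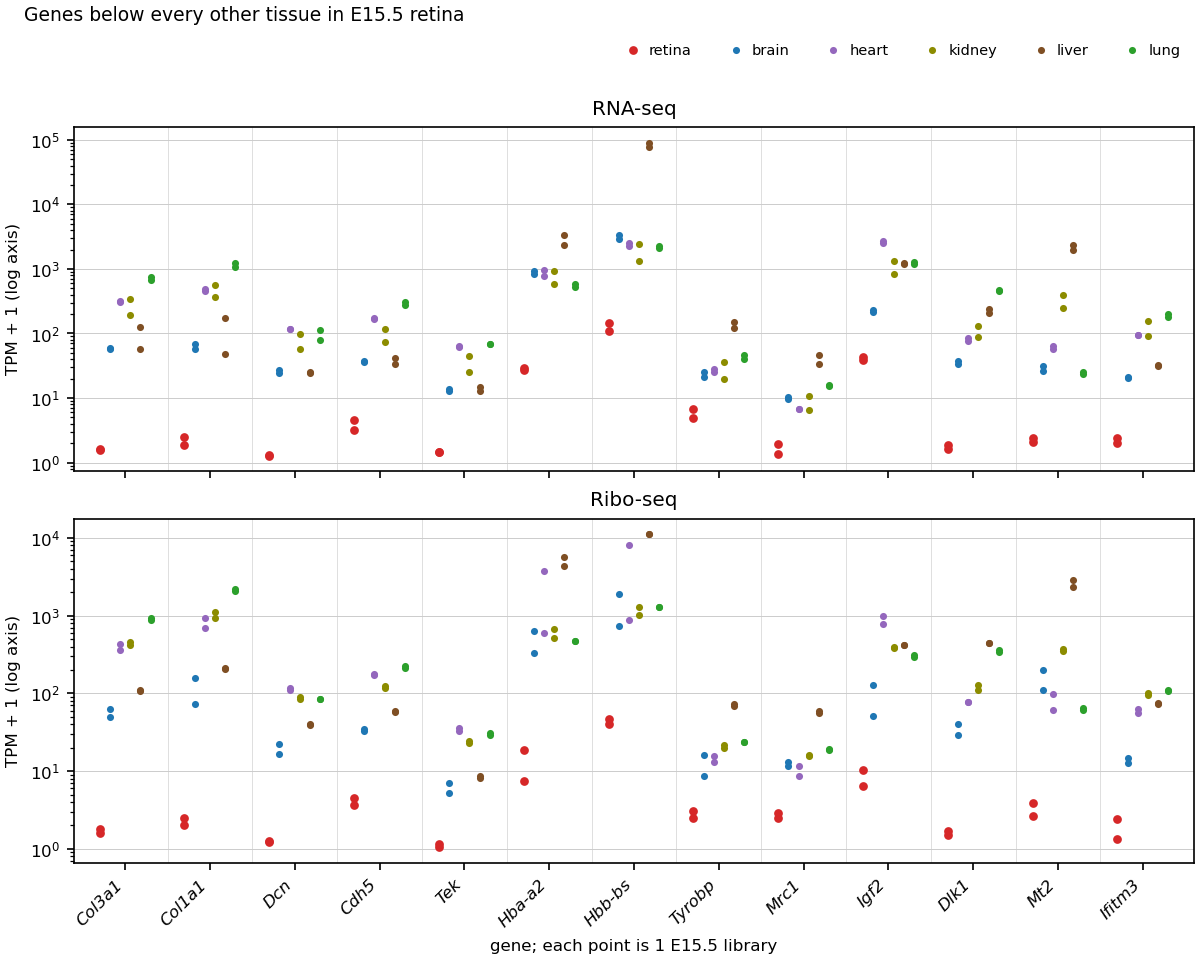
TPM + 1 on a log axis for 13 genes called lower in retina than in every other E15.5 tissue by both assays, in each library by RNA-seq (top) and Ribo-seq (bottom); each point is 1 library, coloured by tissue. Both retina points lie below all 10 others for every gene shown, and brain is most often the next lowest for the collagens and endothelial genes.

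Several lower genes were outside the matrix, endothelial, erythroid and macrophage lists, and whether cells of those kinds carry them was not tested. Dlk1, an imprinted membrane protein of growing tissues, was at 0.858 and 0.627 TPM in retina against 32.2 to 473 TPM (margin −4.33), and Igf2, the imprinted growth factor, at 37.2 and 42.9 TPM against 213 to 2664 TPM (margin −2.44). Of 25 imprinted growth genes, 5 were lower by RNA-seq and 6 by Ribo-seq, 5 under the 3 scalings in each. Dcn, which is also in the matrix list, was among those lower by both assays. Over all genes tested, 2.48% and 5.34% were lower. The metallothioneins Mt1 and Mt2, which bind zinc and copper, were lower too. Mt2 was at 1.4 and 1.07 TPM against 22.3 to 2354 TPM (margin −3.44) and Mt1 at 3.47 and 1.9 TPM against 21.7 to 676 TPM (margin −2.71). Their list of 24 tested complement, iron and xenobiotic genes had 5 lower and 1 higher by RNA-seq, 5 and 0 under all scalings, and 10 lower by Ribo-seq, 7 under all scalings.

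Of 29 antigen presentation and interferon genes tested by RNA-seq, 4 were lower, all under the 3 scalings, and of 28 by Ribo-seq 9 were, 7 under the 3 scalings. They included Ifitm3, an interferon-induced membrane protein, at 0.991 and 1.39 TPM against 19.5 to 202 TPM (margin −3.25). Cxcl12, the chemokine of stromal and meningeal cells, was at 1.47 and 1.35 TPM against 28.6 to 96 TPM (margin −3.66). Of 33 Hox genes tested, 4 were lower by RNA-seq (3 under all scalings) and the list summed to 1.91 and 1.72 TPM in retina against 10.3 to 1902 TPM. Hoxb3 and Hoxb4 were listed at 0 in both retina RNA-seq libraries. Of 24 epithelial junction and keratin genes 3 were lower by RNA-seq and 6 by Ribo-seq, 3 and 4 under all scalings, among them Cdh1, epithelial cadherin, at 0.734 and 1.19 TPM against 4.08 to 231 TPM (margin −1.39). For the lists of this paragraph too, the shares over all genes tested were 2.48% lower by RNA-seq and 5.34% by Ribo-seq.

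**Figure D5:**
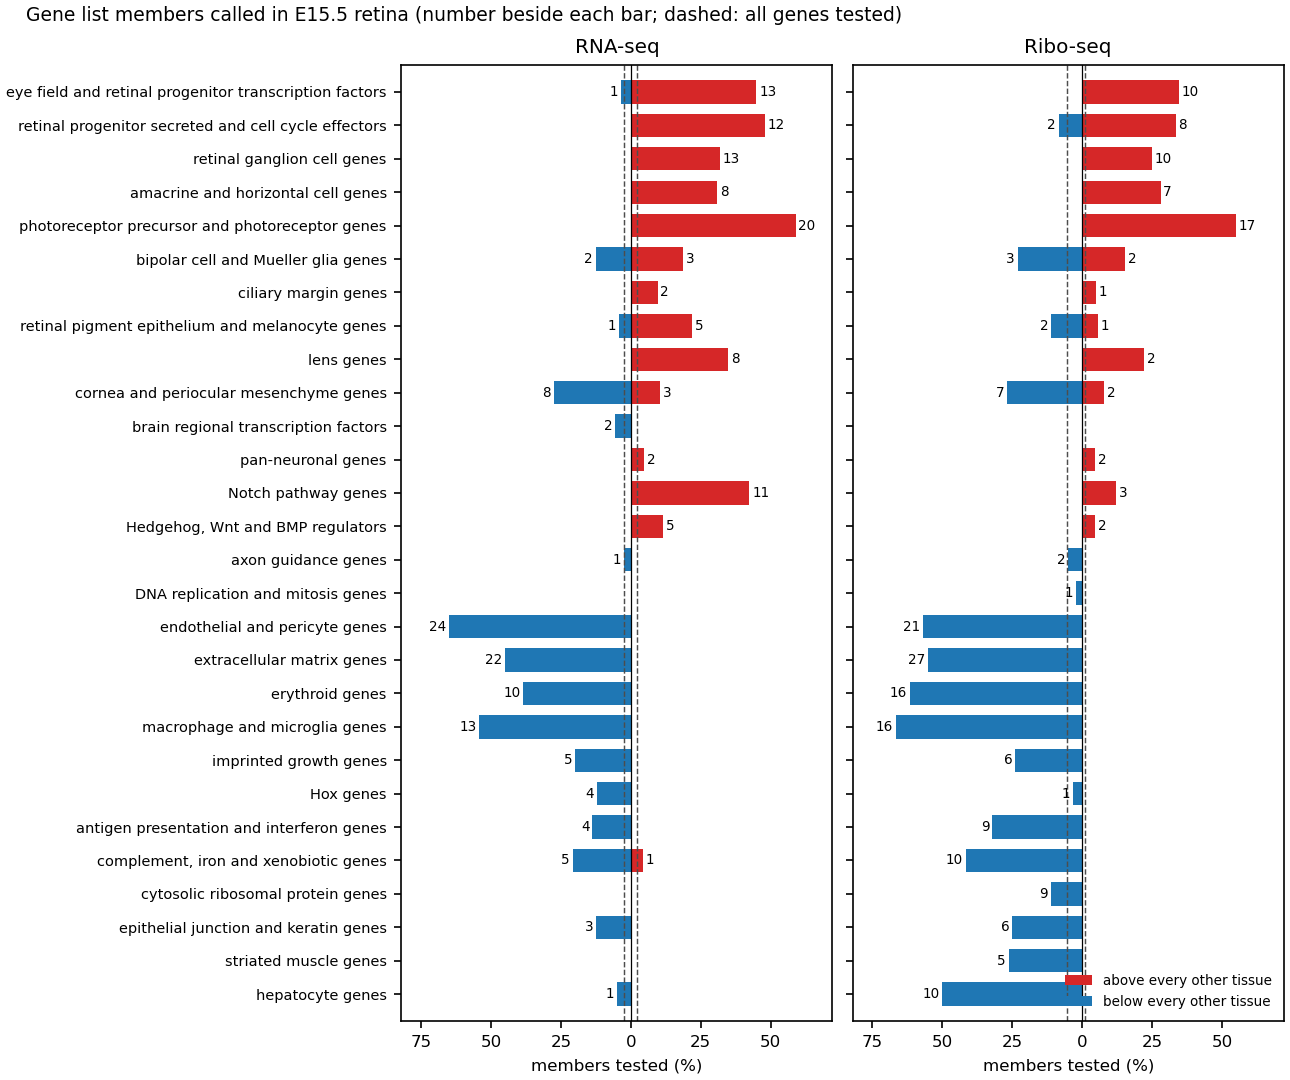
Share of the tested members of each of 28 gene lists called above (red, to the right) or below (blue, to the left) every other E15.5 tissue in retina, in percent, by RNA-seq (left) and Ribo-seq (right); numbers beside bars are genes called and dashed lines mark the share of all genes tested. Bars are over members that passed the filter on low values, so lists with many untested members cannot be ranked by them; the endothelial, matrix, erythroid and macrophage lists reach far to the left in both.

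Some groups had different counts of calls in the 2 assays. Of 80 cytosolic ribosomal protein genes, limma called 0 higher and 0 lower by RNA-seq (0 and 0 also at an unadjusted p below 0.05 in all 5 contrasts), and 9 lower by Ribo-seq, of which 0 kept the call under all 3 scalings. Rps7 was at 679 and 669 TPM by RNA-seq against 419 to 749 TPM, and at 39.5 and 41.5 TPM by Ribo-seq against 57 to 138 TPM. Hepatocyte genes also had more lower calls by Ribo-seq, with 1 of 20 lower by RNA-seq and 10 by Ribo-seq, of which 3 kept the call. Their direction differed less between the assays. By RNA-seq the retina mean was already the lowest for 15 of the 20 hepatocyte genes, but for 1 of the 80 ribosomal protein genes. By Ribo-seq it was the lowest for 19 and 53. Alb, albumin, was listed at 0 in both retina RNA-seq libraries, and had 49 and 31.9 TPM by Ribo-seq against 108 TPM or more elsewhere. As with Scgb1a1, what these footprints owe to other libraries was not tested. Among genes lower by Ribo-seq alone, Ezr, the membrane linker ezrin, was at 12.9 and 13.5 TPM by Ribo-seq against 58.5 to 154 TPM (margin −2.46), and at 35.1 and 39.2 TPM by RNA-seq against 61.3 to 214 TPM (margin −0.72).

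Among genes higher by RNA-seq alone, Eya2, a transcriptional coactivator of eye development, had 70.4 and 76.8 TPM by RNA-seq against 0.127 to 10.7 TPM (margin 2.98). Its Ribo-seq values were 5.7 and 4.93 TPM against up to 3.53 TPM in kidney, a margin of 0.58 (adjusted p = 0.0619). Gnb3, a transducin subunit of cones, had 32.3 and 18.1 TPM by RNA-seq (margin 3.23) and 6.95 and 2.91 TPM by Ribo-seq against up to 2.44 TPM (margin 0.79). Both genes kept the same order of retina and other tissues in the 2 assays, with a smaller distance in Ribo-seq.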

How the data were processed

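Ribosome footprints (ARTseq, rRNA removed with Ribo-Zero, tissue lysed with cycloheximide) and poly(A) RNA were sequenced, per the labels' protocols. Per the submitters' processing notes, CASAVA 1.8.2, cutadapt 1.8.1, TopHat2 2.0.14 and featureCounts 1.6.2 were used with GRCm38.p6. The authors deposited TPM per gene. For their annotation release, strand setting and TPM denominator the sources used here give no entry.

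Of 22055 listed genes, 21952 matched GENCODE M21 and 6537 had exons overlapping another gene. For each assay apart, log2(TPM + 1) of the 12 E15.5 libraries was fitted in limma 3.58.1 (R 4.3.3) with an intensity trend, 6 residual degrees of freedom and Benjamini-Hochberg adjustment over all genes tested. The variance of each gene was moderated by that of other genes, with a median prior of 52.4 degrees of freedom by RNA-seq and 4.07 by Ribo-seq. The p-values thus rest largely on borrowed spread by RNA-seq, and their sizes cannot be compared between assays. Genes with 1 TPM in at least 2 libraries were tested, 16387 by RNA-seq and 14972 by Ribo-seq. Replicates are biological per the labels, but nothing states pooling or litters. Named genes were those of largest margin called by both assays, up to 6 called members of each list, the most abundant ones called by both, those called by 1 assay alone with the largest margin, and a set of eye regulators. Genes outside that rule, among them Kdr, Fgf3, Gnat1 and Scgb1a1, were chosen after their values were seen. Some genes are not reported here. The members and lists were chosen with earlier results of these data known. Alternatives changed the pseudocount, filter, scaling, threshold, replicate block, libraries and stages in the fit. The scripts were tested on simulated data. Python 3.11.15, numpy 2.4.6, pandas 2.3.3 and matplotlib 3.10.9 made the summaries and plots. Promoter windows came from RefSeq (GRCm38.p6).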

Additional observations from a re-analysis of the deposited data

How the results depend on the processing

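Among named genes, no called margin changed sign under the alternatives run, where the gene was tested. Genes that were not named were not checked for this. Some named genes did lose their call, out of 132 called by RNA-seq and 135 by Ribo-seq. With a pseudocount of 4, 111 and 97 kept it. Median-of-ratios scaling kept 123 and 121 while 4 and 10 gained a call, and equal sums kept 128 and 114 while 2 and 9 gained one. Over all genes, 460 of the 799 lower Ribo-seq calls recurred with median-of-ratios factors and 403 with equal sums. At a log2 difference of 2 the counts were 122 higher and 96 lower by RNA-seq, 53 and 134 by Ribo-seq, 49 and 63 by both, and 571 and 197 above the 4 non-neural tissues alone by RNA-seq and Ribo-seq. With a pseudocount of 0.25 lower genes numbered 766 by RNA-seq, 1528 by Ribo-seq and 590 by both. With a pseudocount of 4 they numbered 139, 261 and 88, higher genes 84 by Ribo-seq and 77 by both, and genes above the non-neural tissues alone 262 by Ribo-seq. Median-of-ratios scaling gave 269 higher, 466 lower and 812 above the non-neural tissues alone by Ribo-seq, and equal sums gave 277, 412 and 940. Leaving out 1 library at a time gave 281 to 350 higher and 389 to 426 lower by RNA-seq, 78 to 154 and 608 to 973 by Ribo-seq, 74 to 135 and 265 to 299 by both, and 1140 to 1354 and 455 to 568 above the non-neural tissues alone. The counts of 78 and 74 came without retina replicate 1. Same-numbered libraries of some tissues deviated together and those of others did not (correlations from −0.358 to 0.26 in RNA-seq, from −0.291 to 0.562 in Ribo-seq, with brain and heart highest), so the numbers were not taken to pair the samples, and a replicate block gave 342 higher and 408 lower by RNA-seq and 152 and 800 by Ribo-seq. TPM keeps no read depth, so counting error of low genes is unknown, and 2 retina libraries per assay limit the precision.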

Other observations

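Some gene families outside the lists were read after their values were seen, and their counts are descriptions. The shares over all genes tested were 2.09% higher and 2.48% lower by RNA-seq, and 1.02% and 5.34% by Ribo-seq. Of 12 retinoic acid genes tested by RNA-seq, 6 were higher in retina than in every other tissue and 2 lower, and of 11 by Ribo-seq 3 were higher and 2 lower. The synthesis enzymes Aldh1a1 and Aldh1a3 were among the higher, with Aldh1a3 at 146 and 136 TPM (margin 2.27), as was the degrading enzyme Cyp26a1 at 74.5 and 68.2 TPM against at most 1.72 TPM. The binding proteins Crabp1 and Crabp2 were at 399 and 352 TPM and at 400 and 404 TPM. Aldh1a3 and Crabp1 were not called by Ribo-seq, where their margins were 0.7 and 0.97. Aldh1a2, the synthesis enzyme of the trunk, was lower at 0.297 and 0.348 TPM against 1.83 to 441 TPM (margin −1.52).

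Of 8 neuronal nicotinic receptor subunits tested by RNA-seq, 4 were higher, and 3 of 7 by Ribo-seq. Chrna3 was at 95.2 and 109 TPM against at most 12.6 TPM (margin 3.03), Chrnb4 at 61.9 and 65.4 TPM against at most 4.35 TPM (margin 3.75), and Chrnb3 at 13 and 10.4 TPM (margin 3.15). Nuclear factor I genes went the other way, with 2 of 4 lower. Nfix was at 1.77 and 1.1 TPM against 9.94 to 231 TPM (margin −2.46). The neuropeptide gene Gal was at 166 and 143 TPM, with margins of 4.03 by RNA-seq and 3.64 by Ribo-seq.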
